A study of Mus musculus with 28 samples.

Results

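Regions of H3K27ac, acetylation of lysine 27 of histone H3, were examined where they lie inside the bodies of protein-coding genes in mouse embryonic stem cells. The members were chosen by position and width alone. A member was a region of the deposited H3K27ac consensus list on chromosomes 1 to 19, under 10 kb wide, whose centre lay inside a protein-coding gene and more than 1 kb from every annotated end of any gene of any biotype. By this rule 37597 of the 57857 H3K27ac regions were members, or 65.6% of the 57327 regions on these chromosomes. A protein-coding gene that holds at least 1 member is called a host.

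The cells were of the male line E14, a mouse embryonic stem cell line grown with the cytokine LIF, and were assayed by CUT&RUN, a method that cuts out and sequences the DNA beside an antibody's target by means of a nuclease bound to that antibody in nuclei. The 28 libraries covered 4 targets (H3K27ac, H3K122ac, the histone variant H3.3 and a control with no primary antibody), 7 libraries to a target. Within a target, the mutant genotype H3f3a_AA_H3f3b_WTA had 2 libraries from 2 clones, H3f3a_AA_H3f3b_WTWT, H3f3a_WTWT_H3f3b_AA and H3f3a_WTA_H3f3b_AA had 1 each, and wildtype cells had 2. H3f3a and H3f3b are the genes of H3.3, the series title names the substitution K122A, and all groups share the parental line, with no treatment given. The labels also describe a medium with LIF and inhibitors of GSK3 and MEK, without saying which libraries it applies to. The deposited H3K27ac and H3.3 lists each pool libraries into positions without a value per library, and which genotypes entered is not given in the sources used here. Genotypes were therefore not compared, replicate error and depth are unknown, no test was run, and the exact (Clopper-Pearson) 95% intervals given beside shares cover counting over regions or genes only. The control and H3K122ac libraries were not analysed here, so no background signal stands beside the regions.

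H3K27ac is written by the acetyltransferases p300 and CBP and marks active promoters and active enhancers, the distal elements that raise transcription of a gene. Many mammalian enhancers lie in introns, some acting on the gene they lie in and others on a neighbour, and large genes can also hold additional promoters from which shorter transcripts start. H3.3 is the H3 variant that is placed in chromatin outside DNA replication, and it is enriched at active promoters and enhancers.

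No genome was used here, so the sequences of the members themselves and their place in exons or introns were not read. The sequence at annotated transcription starts that lie inside a host was available, and 4 starts are shown because each is covered by a member and they differ in CG content and in H3.3. They were chosen after the values were seen. Each sequence is from the RefSeq promoter table of GRCm38.p6, whose primary chromosomes have mm10 coordinates, and runs 5′ to 3′ on the gene's strand over 300 bases, 250 before the start and 50 after it, with the dinucleotide CG in capitals. Map4 encodes a microtubule-associated protein and Magi1 a scaffold protein of cell junctions. Dst encodes dystonin, which links cytoskeletal filaments. The Map4 start, at chr9:109931524-109931823 on the plus strand, and the Magi1 start, at chr6:93912914-93913213 on the minus strand, lie under members that touch H3.3. The Dst start, at chr1:34011345-34011644 on the plus strand, and the Etl4 start, at chr2:20519263-20519562 on the plus strand, lie under members that do not.
Map4: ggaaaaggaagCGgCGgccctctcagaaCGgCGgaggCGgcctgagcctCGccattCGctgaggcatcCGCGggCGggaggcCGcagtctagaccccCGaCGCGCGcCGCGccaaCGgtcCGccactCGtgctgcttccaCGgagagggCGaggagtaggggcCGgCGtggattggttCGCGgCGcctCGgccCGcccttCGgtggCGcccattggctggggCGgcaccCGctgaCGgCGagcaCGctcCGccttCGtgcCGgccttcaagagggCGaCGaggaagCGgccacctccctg
Magi1: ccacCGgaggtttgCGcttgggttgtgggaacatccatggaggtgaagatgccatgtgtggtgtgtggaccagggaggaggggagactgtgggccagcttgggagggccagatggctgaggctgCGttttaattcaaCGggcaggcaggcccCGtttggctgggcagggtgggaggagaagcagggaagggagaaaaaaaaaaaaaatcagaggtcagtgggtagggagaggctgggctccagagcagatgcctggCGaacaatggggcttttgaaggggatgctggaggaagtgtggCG
Dst: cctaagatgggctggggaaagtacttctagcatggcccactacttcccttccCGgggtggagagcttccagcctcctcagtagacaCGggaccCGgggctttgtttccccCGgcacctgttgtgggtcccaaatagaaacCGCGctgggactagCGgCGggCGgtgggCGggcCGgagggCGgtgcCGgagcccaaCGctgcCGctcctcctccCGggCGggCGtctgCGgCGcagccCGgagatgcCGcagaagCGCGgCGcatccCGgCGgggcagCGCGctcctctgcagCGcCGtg
Etl4: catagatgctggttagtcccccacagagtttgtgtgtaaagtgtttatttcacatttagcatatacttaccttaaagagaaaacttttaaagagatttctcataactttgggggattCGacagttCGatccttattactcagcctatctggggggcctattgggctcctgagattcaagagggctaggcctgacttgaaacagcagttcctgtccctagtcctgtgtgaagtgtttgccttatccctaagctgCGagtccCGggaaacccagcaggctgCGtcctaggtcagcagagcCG
The Map4 start holds 42 CG and the Dst start 31, while the Magi1 start holds 7 and the Etl4 start 6. A GC box, spelled GGGCGG or CCGCCC on the other strand, was found in the Map4 and Dst windows and in neither of the others, and TATAAA or TTTATA was found in none of the 4. Over all 20085 promoter windows of protein-coding genes on chromosomes 1 to 19, 47.0% held a GC box and 12.7% held the TATA letters, and the median CG count was 14.

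Gene bodies held most of the H3K27ac regions and held them densely. The members had a share of 65.6% of regions (interval 65.2 to 66.0), against 16.5% within 1 kb of a gene end and 14.7% between genes. Protein-coding gene bodies away from all gene ends made up 37.8% of the ground between the first and last annotated gene of each chromosome, or 922 Mb, against 6.31% for gene ends and 48.9% for the ground between genes. Members thus stood at 40.8 per Mb, against 61.3 per Mb at gene ends and 7.06 per Mb between genes. Gene bodies were less dense in regions than gene ends and several times denser than the ground between genes. Bodies of noncoding genes alone held 9.19 regions per Mb. These figures describe the positions by which the members were defined and were not tested.

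The members were short and of much the same width as other H3K27ac regions. Their median width was 799 bp, with quartiles of 408 and 1539 bp, against 867 bp at gene ends and 793 bp between genes. Together they covered 47.4 Mb. The widest member, 9983 bp at chr4:106971153-106981135, lay in Ssbp3, whose product binds single-stranded DNA and acts as a cofactor of LIM-domain transcription factors. The next were 9938 bp in Trp53, the gene of the p53 tumour suppressor, 9936 bp in the metalloprotease gene Adam19, 9934 bp in Fnbp1 and 9927 bp in Srebf2, a regulator of cholesterol synthesis. Just past the width limit lay regions of 10012 bp in Maco1, 10015 bp in Mcm5, a subunit of the replicative helicase, and 10041 bp in Pigl. In all, 275 regions met the rest of the rule at 10 kb or wider, and 211 hosts held at least 1 of them. At the other limit, 1084 members had their centre within 250 bp beyond the 1 kb limit, and the centres of 1298 regions inside protein-coding genes lay within 250 bp short of it.

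Of the 20665 protein-coding genes on chromosomes 1 to 19, 8144 were hosts, or 39.4%. Exactly 1 member was found in 2581 genes, 2 to 4 in 2920, 5 to 9 in 1594 and 10 or more in 1049, which is 5.08% of genes. The median host held 3 members, with quartiles of 1 and 6, and the fullest held 72. Genes with 20 or more numbered 228, and 20 genes held 40 or more. The genes with 10 or more members held 17109 of them, 45.5% of the total, whereas the 100 fullest genes held 9.33%, so the members were spread over many hosts. The 1240 fullest genes were needed to reach 50% of the members. Nearly every member had a single host: 37225 lay in 1 gene, 360 in 2 overlapping genes and 12 in 3 or more. Of these 12, 6 lay in clustered protocadherin genes, whose annotated bodies share their 3′ exons, with up to 24 genes over the same region.

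**Figure D1:**
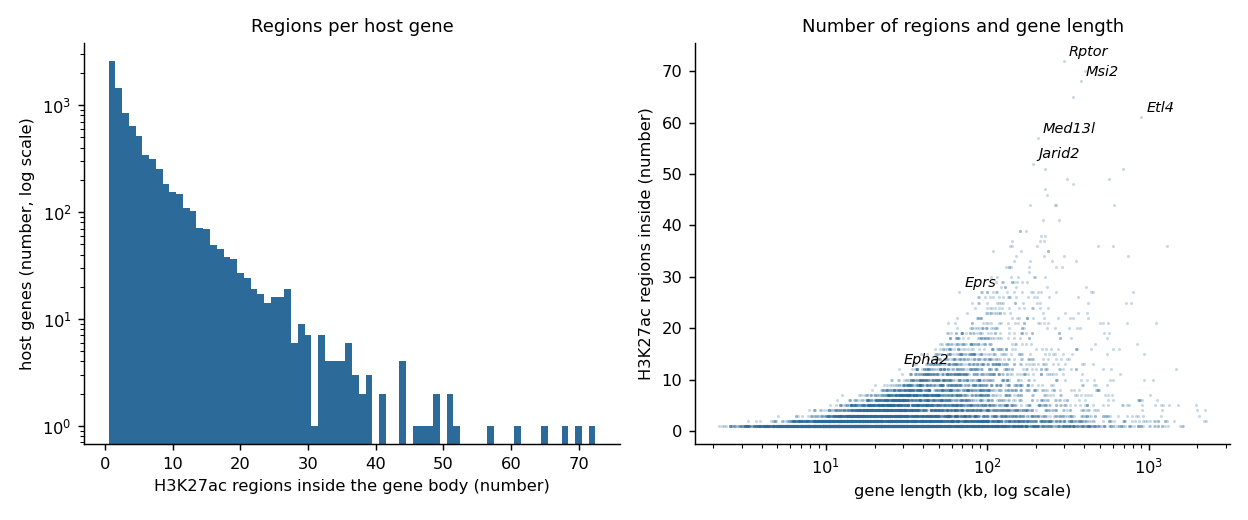
The left plot gives the number of host genes (log scale) for each number of H3K27ac regions inside the gene body, and the right plot gives that number against gene length in kb (log scale), with 1 point per host gene and some genes named. Most hosts hold few regions, the counts tail off to 72 in Rptor, and the upper edge of the counts rises with gene length.

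Long genes were hosts more often, and the number per length was highest in genes of middle length. Hosts had a median length of 34.5 kb, against 9.14 kb for genes without a member. Of genes under 5 kb, 3.52% were hosts, which the rule limits since little of such a gene is over 1 kb from both ends. The share was 34.7% at 5 to 20 kb, 55.3% at 20 to 50 kb and between 63.5% and 68.5% in every longer class. Across all genes the Spearman correlation of number with length was 0.50, and among hosts it was 0.42. These correlations are across genes, which share chromosomes and libraries. Over all genes of a length class, members stood at 1.62 per 100 kb under 5 kb, 5.91 at 5 to 20 kb, 6.91 at 20 to 50 kb and 6.09 at 50 to 100 kb. In longer genes there were 3.98 per 100 kb at 100 to 200 kb, 1.77 at 200 to 500 kb and 0.562 from 500 kb up. These figures divide by whole gene length, so the 1 kb that the rule excludes at each end lowers the shorter classes most.

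Rptor held the most members of any gene under the rule used here, though this rank depended on how the regions were split. With regions under 500 bp apart joined, Rptor held 60, fewer than Dst with 67, Msi2 with 64 and Rere with 61. With widths under 5 kb, Rptor and Dst held 69 each. Rptor encodes the scaffold subunit of the nutrient-sensing mTOR complex, and 72 members lay in its 297 kb on chromosome 11, or 24.3 per 100 kb, covering 33.5% of the gene. Neighbouring members in Rptor lay a median of 3288 bp apart, centre to centre, and the longest stretch between neighbours was 18.3 kb. Neither end of Rptor was touched by an H3K27ac region other than its members. Dst followed with 70 members in 401 kb, and Msi2, an RNA-binding protein gene, with 68 in 379 kb. Rere, which encodes a nuclear receptor corepressor, held 65 in 340 kb, and Etl4 held 61 in 900 kb. The 5 fullest hosts thus spanned lengths from 297 to 900 kb, and the fullest was the shortest of them.

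The other hosts among the top 20 held 41 to 57 members. Med13l, a subunit of the Mediator kinase module, held 57 members in 205 kb, and they covered 55.6% of the gene. Jarid2, an accessory subunit of the Polycomb methyltransferase complex, held 52 in 191 kb, which covered 63.1%. In both, members ran the whole length with no long stretch between neighbours, the longest being 8963 bp in Med13l and 7321 bp in Jarid2. The receptor phosphatase gene Ptprg and the Hippo pathway transcription factor gene Tead1 held 51 each, and Enox1 and the spindle checkpoint gene Mad1l1 held 49 each. Macf1, which crosslinks microtubules and actin, held 48, the splicing regulator gene Rbfox2 held 47 and Tanc1 held 46. The deacetylase gene Hdac4, Magi1, the lipid transfer gene Pitpnc1 and the adherens junction gene Plekha7 held 44 each. Ext1, which builds heparan sulfate chains, and Gli2, an effector of Hedgehog signalling, held 41 each.

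The evenness of the members along the gene differed among these hosts. In Rptor, Rere, Med13l, Jarid2 and Plekha7 the members ran along the gene, with no neighbours further apart than 18.3 kb. The longest stretches in Tead1, Hdac4 and Gli2, of 14.1, 16.9 and 18.3 kb, were within the same bound. In Etl4 and Enox1 they gathered in part of the gene. The longest stretch between neighbours was 242 kb in Etl4, 26.9% of its length, and 246 kb in Enox1, 43.5% of its length, although their median spacings, 3658 and 3721.5 bp, were like those of the others. Magi1 and Ptprg lay between these, with longest stretches of 70.4 and 61.3 kb. The gene ends also differed. Of the 20 fullest hosts, 13 had an H3K27ac region at an end that was not a member, and Rptor, Dst, Etl4, Enox1, Macf1, Ext1 and Gli2 did not. Members themselves could lie there. In Gli2 a member of 9482 bp, centred 2364 bp from the 5′ end, ran past that end and touched H3.3. In Dst a member of 1194 bp, centred 1188 bp from the 5′ end, reached within 1 kb of it.

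Ranked by bases in place of number, the order changed. Msi2 came first with 132 kb of H3K27ac in members, then Jarid2 with 120 kb, Med13l with 114 kb, Etl4 with 108 kb and Rptor with 99.4 kb. Hdac4, Plekha7, Ankrd11, Tmem131 and Tns3 completed the first 10, with 93.4, 90.4, 89.1, 87.4 and 85.0 kb. Ankrd11, a chromatin regulator, and Tmem131 had 39 and 33 members and were covered over 56.1% and 59.3% of their length. By number per length, the 10 densest hosts with at least 10 members were genes of 25.4 to 66.9 kb. Epha2, a receptor tyrosine kinase of the ephrin system, held 12 in 28.2 kb, which is 42.6 per 100 kb, and Eprs, a tRNA synthetase gene, held 27 in 66.9 kb, or 40.3 per 100 kb. The median over all hosts with 10 or more was 17.7 per 100 kb. The rest of the 10 densest were Gnl2, Msantd2, Wtap, Pcbp2, Hnrnpul1, Sbno1, Zwilch and Skil, from 39.4 per 100 kb in Gnl2 to 35.9 in Skil. Wtap, a subunit of the adenosine methyltransferase of messenger RNA, had 63.6% of its 25.7 kb covered by its 10 members. None of these 10 was in the 20 with most members or the 10 with most bases.

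Many long genes held none. Of 2313 genes over 100 kb, 805 had no member, or 34.8%, and of 216 over 500 kb, 68 had none. The 10 longest of them included Nrxn3 (1612 kb), Ctnna3, Pcdh15, Dpp10, Tenm2, Sgcz, Ptprt, Nrg3 and Ctnna2 (1098 kb). Several encode proteins of neuronal synapses and adhesion, such as the presynaptic neurexin of Nrxn3 and the teneurin of Tenm2. None of the 10 had H3K27ac at an end, and Ptprt alone had H3.3 there. Of all 805, 8.07% had an H3K27ac region at an end and 13.0% an H3.3 region. Among the 1508 hosts over 100 kb these shares were 38.1% and 18.9%. Over all protein-coding genes, of any length, they were 37.0% and 16.8%. The difference between long hosts and long genes without members was thus larger for H3K27ac than for H3.3. Hosts were defined from the same H3K27ac list that gives their end status, whereas H3.3 comes from a separate list. The H3.3 share over all genes is also lower, so these differences cannot rank the marks.

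Neighbouring members in a gene usually lay a few kb apart. Over 29943 neighbouring pairs the median distance between centres was 4166 bp, with quartiles of 2519.5 and 7602 bp. The median stretch between their edges was 2551 bp. Of the pairs, 58.5% were under 5 kb apart, 3.27% under 1 kb and 2.22%, or 666 pairs, over 50 kb. The closest pair had centres 207 bp apart. The median spacing was 5073 bp in hosts with 2 to 4 members, 4163 bp with 5 to 9, 3992.5 bp with 10 to 19 and 3970.5 bp with 20 or more. From 5 members up, hosts thus hardly differed in how far apart typical neighbours stood. The share of pairs over 50 kb apart was lower in fuller hosts, at 5.12% with 2 to 4 members and 0.975% with 20 or more. These were 258 pairs over 2920 hosts and 60 pairs over 228 hosts, so fuller hosts did not have fewer such stretches per gene.

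Spacing within a host was not constant. No random placement was set beside it, so the values below do not tell whether members cluster. Over the 1049 hosts with 10 or more members, the median of each gene's own median spacing was 4105 bp, with quartiles of 3190 and 5435.5 bp. The coefficient of variation of spacing within a gene had a median of 0.730, and the median spacing was typically 0.799 of the mean. The longest stretch between neighbours took up a median of 16.8% of the gene, and in 6 hosts it took up more than 50%.

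Members lay along the whole gene. Strand was known for 6513 hosts, which held 30593 member positions, and 51.1% of these lay in the 5′ part of the gene, up to its midpoint. With the gene divided into 10 equal parts, each of the 8 inner parts held between 10.1% and 10.9% of positions, and the first and last parts held 8.67% and 8.03%, where the rule removes the bases nearest the ends. In the 1171 hosts over 100 kb, for which 1 kb is little, the first part held 11.7%, the fifth 9.23% and the last 10.0%. The excess near the 5′ end was therefore small.

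Hosts more often had H3K27ac at their own ends than genes without members. A gene counted here if an H3K27ac region that was not a member touched the sequence within 1 kb of either of its ends, and 37.0% of all protein-coding genes did. The share was 61.3% of hosts (interval 60.3 to 62.4), against 21.2% of genes without a member (20.5 to 21.9). It was 49.8% in hosts of exactly 1 member, 63.1% at 2 to 4, 71.6% at 5 to 9 and 69.3% at 10 or more. The share thus rose with number up to 5 to 9 members and no further, the last 2 intervals overlapping. Where strand was known, 51.3% of hosts had H3K27ac at the 5′ end and 28.3% at the 3′ end, against 18.6% and 9.01% of genes without a member. Members are wide enough in places to reach an end themselves, and in 675 hosts a member alone did so.

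The difference was present within every class of gene length. Here too only regions that were not members counted at the 5′ end. In genes of 20 to 50 kb the mean number of members was 3.57 with H3K27ac at the 5′ end, against 1.36 without. In genes of 100 to 200 kb it was 9.87, against 4.00, and in genes of 200 to 500 kb 13.7, against 3.97. Genes without H3K27ac at the 5′ end were often hosts all the same, with 58.2% of those between 200 and 500 kb holding at least 1 member.

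H3K27ac regions were denser inside a gene's end than just outside it. This was measured on genes of 40 kb or longer with no other gene within 20 kb outside the end, counting all H3K27ac regions under 10 kb wide from 2 to 20 kb on each side. Inside the 5′ end, the 341 genes with H3K27ac there had 21.6 regions per 100 genes in each 2 kb, against 6.65 outside, a ratio of 3.25. The 1268 genes without had 5.54 inside, against 1.92 outside, a ratio of 2.89. At the 3′ end the inside held 15.9 and the outside 4.35 for the 347 genes with H3K27ac at the 5′ end, and 4.49 and 1.77 for the 1095 without. The step at the gene boundary was thus present at both ends and in both classes of gene. The level on both sides was higher in the genes counted as having H3K27ac at the 5′ end. Members did not count there, so a gene whose start was reached by a member alone stood among those without.

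**Figure D2:**
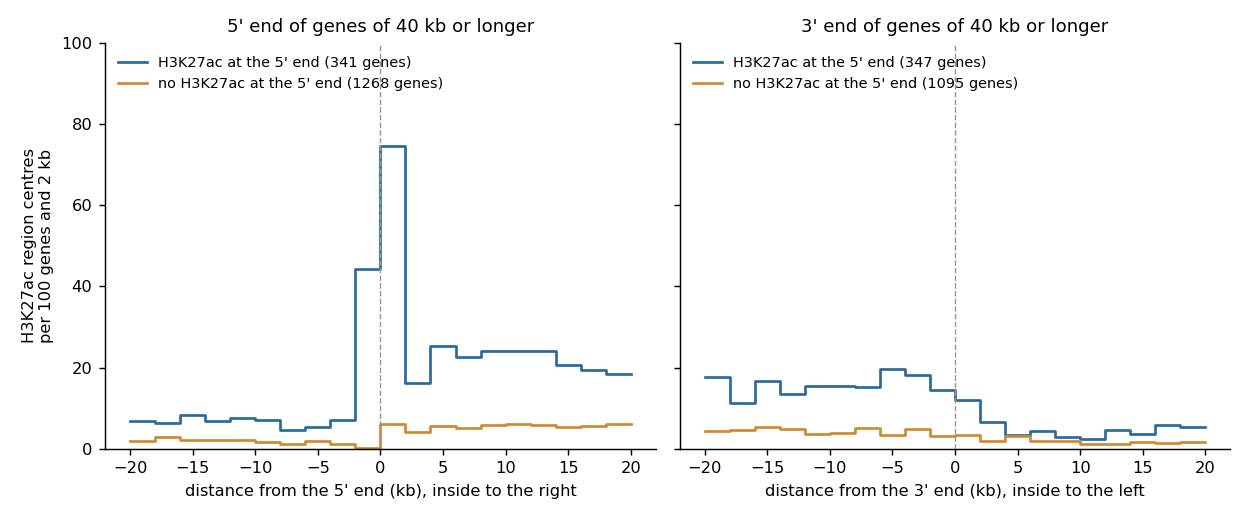
Centres of H3K27ac regions per 100 genes in each 2 kb are plotted against distance in kb from the 5′ end (left) and from the 3′ end (right) of genes of 40 kb or longer with no other gene within 20 kb outside that end. Blue lines are genes with H3K27ac at the 5′ end, members not counted, and orange lines are genes without. From 2 to 20 kb both average higher on the gene's side of the dashed line.

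Few members touched an H3.3 region. H3.3 was not used to choose the members, and of all H3K27ac regions on these chromosomes 4.39% touched an H3.3 region by at least 1 bp. Among members the share was 1.54% (580 of 37597, interval 1.42 to 1.67), against 14.7% at gene ends (14.0 to 15.4) and 4.88% between genes (4.43 to 5.36). The members thus had the lowest share of the 3 classes, with intervals that do not overlap. The share moved with the definition: it was 1.00% where members had to lie 2.5 kb from every end, and 0.601% where each region was reduced to the 200 bp about its centre. The share rose with width in every class. All H3K27ac regions were divided by width into 4 classes of equal number, parted at 413, 812 and 1577 bp. From the narrowest class to the widest the share was 0.534, 0.671, 1.15 and 3.92% among members, 7.03, 9.03, 16.0 and 25.5% at gene ends, and 0.986, 1.21, 3.03 and 14.3% between genes. Members were lowest in each width class, with intervals that overlap those of regions between genes in the narrower 2 classes and not in the wider 2. The widest class was not alike in width, since the rule kept members under 10 kb. Regions at gene ends and between genes reached 24135 and 24051 bp. Of the 275 regions at or above the 10 kb limit inside gene bodies, 22.5% touched H3.3.

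The members that touched H3.3 were wide and scattered over many genes. Their median width was 2213 bp, against 791 bp for the rest, and the median overlap was 308 bp. They lay in 556 genes, of which 34 held 2 and the glutamate receptor gene Grik3 and the glycosyltransferase gene Gcnt2 held 3 each. Of the 72 members of Rptor and the 70 of Dst, 0 touched H3.3, and Msi2, Etl4, Jarid2, Tanc1, Hdac4, Magi1, Plekha7 and Gli2 had 1 each. The widest overlap, 3716 bp, was in a member of 7059 bp in the small GTPase gene Rhof. It was followed by 1963 bp in a member shared by Schip1 and Iqschfp, 1466 bp in Trp53, 1378 bp in the pyrimidine catabolism gene Dpys and 1365 bp in Gpx4, which protects membrane lipids from peroxidation. The members in Rhof, Trp53 and Gpx4 were 7059, 9938 and 9506 bp wide. Their centres lay 3430, 1647 and 1478 bp from an annotated end, so each ran past that end.

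H3.3 was more frequent among members that covered an annotated transcription start. Of the members, 445, or 1.18%, covered an annotated start lying inside the host over 1 kb from its ends, and 24.5% of these touched H3.3 (interval 20.6 to 28.8). Another 221 were wide enough to cover a different annotated start, and 29.9% of them touched H3.3. Of the 36931 members over no annotated start, 1.10% did (0.993 to 1.21). Width differed too, with medians of 1605 bp over a start inside the host and 788 bp over none, but within each width class the difference stayed: the share was 20.8, 17.2, 19.8 and 29.3% over such a start, against 0.483, 0.570, 0.855 and 2.60% over none. At gene ends, 28.8% of the regions over an annotated start touched H3.3, against 8.87% of those over none. Members over a start inside the host therefore had a share close to that of regions over a start at a gene end, with overlapping intervals.

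**Figure D3:**
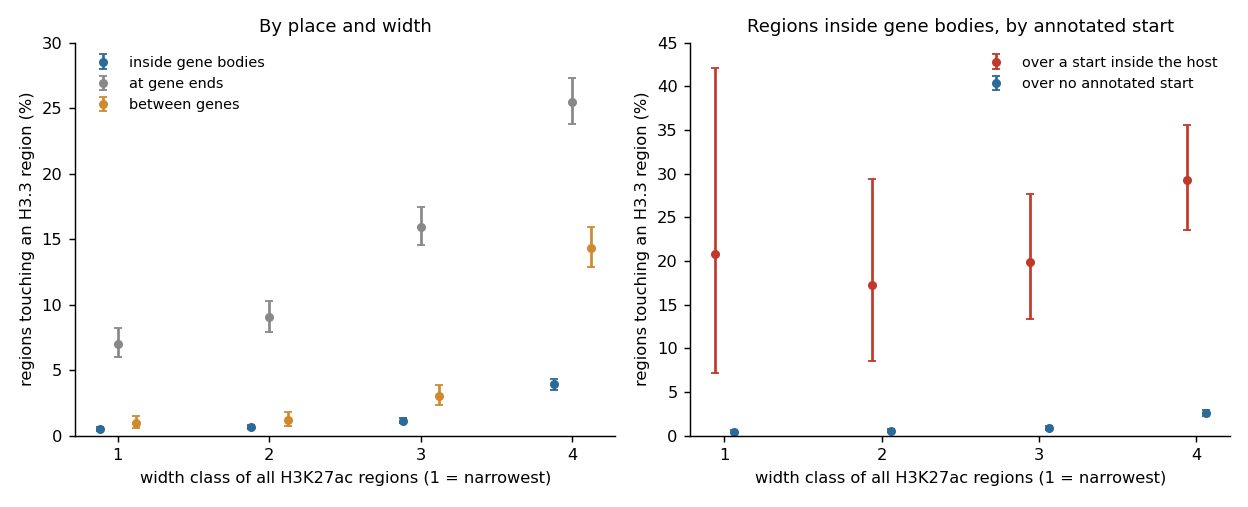
Share of H3K27ac regions that touch an H3.3 region (percent), by width class, for 3 places in the genome (left) and for members over an annotated start inside the host or over none (right). Points are shares and bars exact 95% intervals over regions. Members have the lowest share in each class, with bars that overlap those of regions between genes in classes 1 and 2, and members over a start stay above those over none.

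A minority of the annotated inner starts lay under a member, and those whose member touched H3.3 had a higher median CG count. For scale, all members together covered 47.4 Mb, and protein-coding gene bodies away from all gene ends made up 922 Mb. The RefSeq table gave 3869 starts inside a protein-coding gene body over 1 kb from its ends, in 2905 genes, and a member covered 503 of them, or 13.0%, in 423 genes. A member that touched H3.3 covered 133. The 300-base windows of these 133 held a median of 15 CG (quartiles 12 and 24), the 370 under a member without H3.3 held 9 (5 and 18) and the 3366 that no member covered held 8 (4 and 21). A GC box was present in 54.9% of the first, 41.1% of the second and 38.7% of the third, and the TATA letters in 3.01, 6.49 and 11.3%. The quartiles overlap widely. The 4 sequences above were chosen because they differ, and they only illustrate the range. Map4 with 42 CG and Magi1 with 7 both lie under members with H3.3, of 3561 and 2796 bp, overlapping it by 506 and 859 bp. Dst with 31 CG lies under a member of 1112 bp without it, and Etl4 with 6 under a member of 3255 bp without it. Tenm4, a teneurin gene, and Myo10, an unconventional myosin gene, have inner starts of 12 and 6 CG under wide members with H3.3, of 5857 and 6313 bp.

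Gene groups were described by their counts beside those of all protein-coding genes, of which 39.4% were hosts, with a median of 0 members, a median length of 17.5 kb and 3.80 members per 100 kb. The groups differ in length, which moves with the number of members, so median lengths and numbers per 100 kb are given. Among 22 genes of naive pluripotency, 16 were hosts, with a median of 2 members in a median length of 12.8 kb and 15.4 per 100 kb. The nuclear receptor gene Nr5a2 held 25, the methylcytosine dioxygenase gene Tet1 15, and the transcription factor genes Tfcp2l1 and Esrrb 12 and 9. The short genes Dppa5a, Fgf4 and Klf2 held none and had H3K27ac at an end, and Prdm14, of 13.7 kb, held none and had none at an end. Of 14 formative and primed genes, 6 were hosts, with a median length of 16.5 kb and 5.202 members per 100 kb. The DNA methyltransferase genes Dnmt3a and Dnmt3b held 12 and 8, and Etv5 and Etv4, transcription factors downstream of FGF signalling, 6 and 3. The signalling and transcription factor genes Fgf5, Foxd3, Lef1 and Lefty2 held none.

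Genes of chromatin regulators were hosts in most cases. All 14 histone acetyltransferase and BET reader genes were hosts, with a median of 9.5 members and 19.6 per 100 kb, the highest of the groups. Kat6b held 39, Kat2b 20 and Ep300, which encodes the enzyme p300, 17. Of 18 deacetylase and corepressor genes, 16 were hosts with a median of 7.5, among them Hdac4 with 44, Ncor1 with 29 and Gatad2b with 17, while Chd3 and Hdac7 held none. Of 16 Polycomb and accessory genes, 12 were hosts with a median of 6. After Jarid2 came the chromodomain gene Cbx7 with 17 and the CpG-island binding gene Kdm2b with 13, and Cbx2, Pcgf1, Pcgf5 and Ring1 held none. Of 16 genes of the BAF remodelling complexes, 14 were hosts with a median of 6, with 27 members in Smarcc1, 22 in the ATPase gene Smarca4 and 13 in Arid2, and none in Brd9 or Smarca2, the alternative ATPase gene. These 4 groups had median lengths of 38.2 to 54.9 kb, and the deacetylase, Polycomb and BAF lists had 16.2, 16.4 and 10.2 members per 100 kb.

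Most genes of 4 signalling pathways of the stem cell state were also hosts, in lists of genes longer than the typical gene. Median lengths were 47.8 kb for LIF and STAT3, 59.6 kb for FGF and ERK, 72.5 kb for WNT and GSK3 and 65.1 kb for Nodal, BMP and SMAD. For comparison, 55.3% of all genes of 20 to 50 kb and 63.5% of those of 50 to 100 kb were hosts. Members per 100 kb were 13.3, 16.1, 8.50 and 8.99 in the lists in that order. Of 8 LIF and STAT3 genes, 7 were hosts, with 24 members in the receptor gene Lifr, 12 in its partner Il6st, 9 in Stat3 and 8 in the feedback inhibitor gene Socs2. Of 18 FGF and ERK genes, 17 were hosts, with a median of 7, and the inhibitor gene Spred2 held 27 and the adaptor gene Grb2 22. Of 17 WNT and GSK3 genes, 16 were hosts, with 24 members in the kinase gene Gsk3b, 20 in the ligase gene Znrf3, which removes WNT receptors, 14 in the co-receptor gene Lrp5 and 13 in the scaffold gene Axin1, and none in Lef1. Of 16 Nodal, BMP and SMAD genes, 14 were hosts, with 17 in the receptor gene Bmpr1a, 11 in Ski and 10 in Skil, both inhibitors of SMADs, and none in the receptor genes Acvr2a and Tgfbr1.

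The remaining groups differed widely in number. All 24 adhesion and cytoskeleton genes were hosts, with a median of 15.5 members in a median length of 132 kb, which is 9.14 per 100 kb, and after Dst and Macf1 came Tns3 with 28 and the catenin gene Ctnna1 with 26. All 15 RNA-binding regulators were hosts with a median of 9 in a median length of 110 kb, or 12.02 per 100 kb, among them Celf1 with 16 after Msi2 and Rbfox2. Long genes of neurons were hosts in 17 of 24 cases, but with a median of 1.5 members in a median length of 1467 kb, which is 0.167 per 100 kb. For comparison, 68.5% of all genes from 500 kb up were hosts, with 0.562 members per 100 kb. In the neuronal list Magi2 held 12, and Ctnna3, Nrg3 and Nrxn3 were among the 7 with none. Of 27 lineage transcription factor genes, 3 were hosts, Tcf4 with 8 members, Meis1 with 2 and Meis2 with 1, and the list had a median length of 18.95 kb and 0.534 members per 100 kb. Its genes without a member include Gata2, of 13.1 kb, and Gata4, of 72.8 kb.

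**Figure D4:**
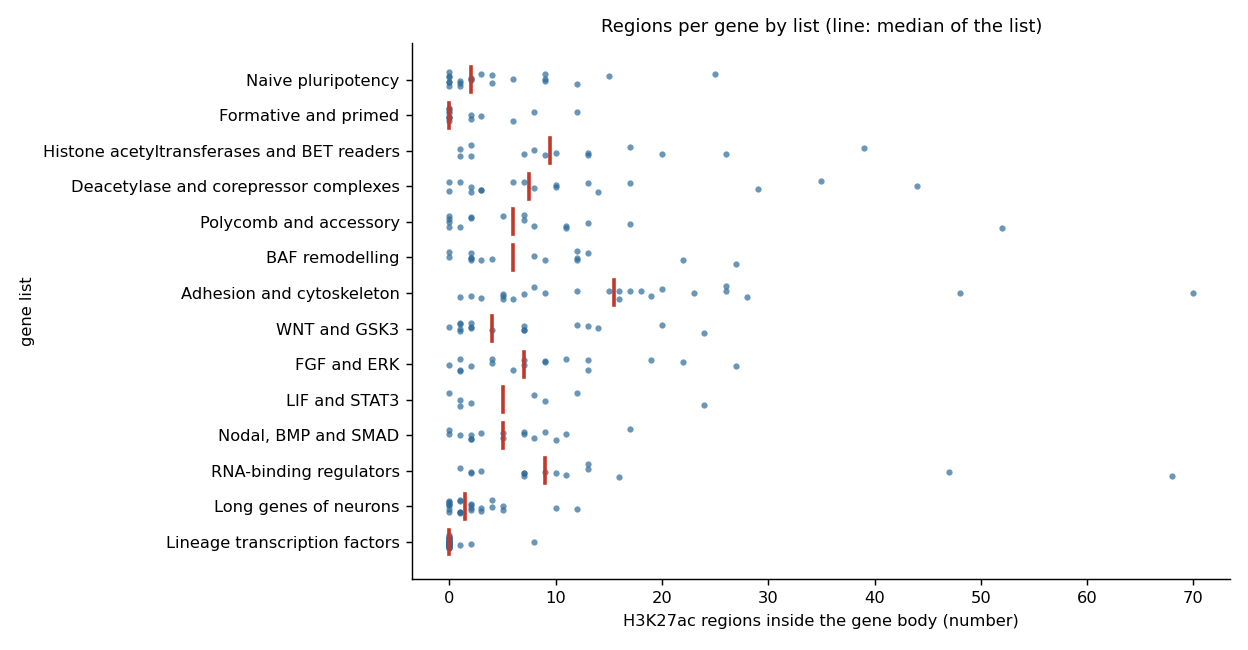
Each point is 1 gene of a list, placed at its number of H3K27ac regions inside the gene body, and each red line is the median of its list. Adhesion and cytoskeleton genes have the highest median, 15.5, and most lineage transcription factor genes lie at 0.

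The labelled cell type was checked against its markers over all H3K27ac regions, members or not. All 15 markers of embryonic stem cells had H3K27ac inside or at an end, and 11 of them were hosts. Of markers of other cells, 0 of 6 for primitive endoderm had any, 1 of 5 for trophoblast did (Gata3, at an end) and 1 of 6 for fibroblasts did (Thy1, at an end), and none of these genes was a host. By chromosome, members ranged from 1163 on chromosome 19 to 3407 on chromosome 11.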

How the data were processed

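Per the labels, nuclei of E14 cells were assayed by CUT&RUN with a yeast nucleosome spike-in. Bowtie2, SAMtools, deepTools, MACS2 and mm10 are named in the submitters' processing notes. The sources used here do not give how libraries were combined into the consensus. The values the authors deposited are the start and end positions (unit: other) of H3K27ac and H3.3 regions, with no score and no value per library. Columns of other samples numbered 0.

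Starts were made 1-based. Genes came from RefSeq of GRCm38.p6, and strand and inner starts from its promoter table (16457 of 20665 protein-coding genes matched). H3.3 touched a region if they shared 1 bp. The members, gene lists and naming rule were chosen with earlier results of these data known. Named hosts are the 20 with most members, the 10 with most bases, the 10 densest of those with 10 or more, and the 10 longest genes without. From each list up to 4 fullest hosts and 4 empty genes are named. The 5 widest members, the 3 narrowest regions past the limit and the 5 with most H3.3 are also named. A few genes taken by this rule are left unreported. Map4, Tenm4 and Myo10 were named after their values were seen. Python 3.11.15, pandas 2.3.3 and scipy 1.17.1 were used, and the counting was tested on simulated data.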

Additional observations from a re-analysis of the deposited data

Results flagged for a closer look

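The X chromosome was outside the rule. It held 515 H3K27ac regions, of which 245, or 47.6%, met the rest of the rule, inside 112 of 966 X-linked protein-coding genes (11.6%). No value in control libraries was available to set beside them.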

How the results depend on the processing

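No paired analysis was possible because the lists hold no value per library. The number of members ranged from 32939 with ends at least 2.5 kb away to 40362 with ends at least 500 bp away, the number of genes with 10 or more members from 902 to 1125, and each of the 160 recounts of the 20 fullest hosts (8 settings) was within 1.5 times the reported number. The median spacing of 4166 bp was 4114.5 bp with ends of protein-coding genes only, 4067 bp with widths under 5 kb and 4632 bp with regions under 500 bp apart joined. The share touching H3.3, 1.54%, was 2.13% with ends 500 bp away, 1.00% at 2.5 kb, 1.32% with widths under 5 kb, 1.70% with no width limit, 1.03% with the whole region clear of the ends, 1.33% where H3.3 covered 50% of the shorter region and 0.601% with regions reduced to 200 bp. The share of hosts with H3K27ac at an own end, 61.3%, was 47.8% at 500 bp, 68.0% at 2.5 kb, 68.3% with the whole region clear and 69.6% when members could count at the end, an alternative chosen after seeing the data. The share in the 100 fullest genes, 9.33%, was 8.82% at 500 bp, 10.3% at 2.5 kb and 9.76% with the whole region clear. The share in the 5′ part was 52.3% at 500 bp. For the own-end share the window stayed at 1 kb, and members did not count except in the last alternative. Regions made members by the 500 bp setting therefore could not count, and regions dropped by the stricter settings could. The cause of these shifts was otherwise not tested. Depth is unknown, so a gene without a region is only one in which none was called.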
